A study of Mus musculus with 4 samples.

Results

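Igfbp1, Fbp1, Hsd11b1 and G6pc are liver genes of glucose and glucocorticoid metabolism, and they were compared between WT and Stk40 KO fetal livers on 4 arrays. They were chosen by symbol from a deposited list of 2-fold differences, in which each has 1 probe set with a single symbol. They are 4 of 1345 genes that have a name there, and their probe sets are 4 of the 45101 on the array. Among them the lowest ratio of genotype means by the 2-fold rule was that of Igfbp1, at 2.85. That rule raises values under 0.1 to 0.1, which sets the ratios of Hsd11b1 and G6pc, so the members are not ranked by size of difference. Probe sets just short of 2-fold have no name in these files. RNA came from unsorted fetal livers of E14.5 C57BL/6J embryos from matings of Stk40 heterozygotes, with 2 arrays per genotype and RNA of 6 livers pooled on each. The Stk40 KO embryos carry a conventional deletion in all tissues. As the members were named through a 2-fold difference between these same arrays, their differences between the genotypes are given below as a description, with no test.

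A liver makes glucose from lactate, glycerol and amino acids by gluconeogenesis, and in the mouse this pathway is switched on mainly around birth. Fbp1, fructose-bisphosphatase, catalyses one of its committed steps, and G6pc, the catalytic subunit of glucose-6-phosphatase, releases free glucose in the last step. Hsd11b1 is the reductase that turns inactive glucocorticoid back into its active form inside liver cells, and active glucocorticoid induces gluconeogenic genes. Igfbp1 is a secreted protein that binds insulin-like growth factors, and its gene in liver is induced by glucocorticoid and repressed by insulin.

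Each probe set has 1 linear intensity per array, in arbitrary units, and 21.0% to 23.2% of the values of an array were negative. Negative values gave the noise level, an intensity of 143, which exceeds 95% of them in size. From 24.1% to 28.5% of the probe sets of each array lay above it. The Stk40 KO arrays were brighter overall (medians of 37.5 and 39.3) than the WT arrays (29.9 and 33.9), so that each value is given as deposited and, where it matters, after scaling to equal 75th percentiles of the positive values. Stk40 was read by 1 named probe set, at 59.9 and 52.2 in WT against -98.9 and -111 in Stk40 KO, all under the noise level. In RNA of whole livers, a different share of liver cells and a different amount of RNA per cell cannot be told apart.

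In intensities as deposited, all 4 members were higher in Stk40 KO fetal livers by the 2-fold rule that made the table, against 3.79% of the 32894 probe sets that the rule keeps, and all 4 did so at equal 75th percentiles, against 2.49%. On both scalings the lowest Stk40 KO value of each member lay above its highest WT value, which was so for 32.7% of all probe sets as deposited and for 16.6% at equal 75th percentiles. Among probe sets above the noise level on at least 2 arrays, as Igfbp1, Fbp1 and Hsd11b1 were, these shares were 45.5% and 16%. The shares are printed only as a background, since the rule used this comparison. The members differed widely in brightness. Igfbp1 lay above the noise level on all 4 arrays, Fbp1 and Hsd11b1 on both Stk40 KO arrays, and G6pc on none.

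**Figure D1:**
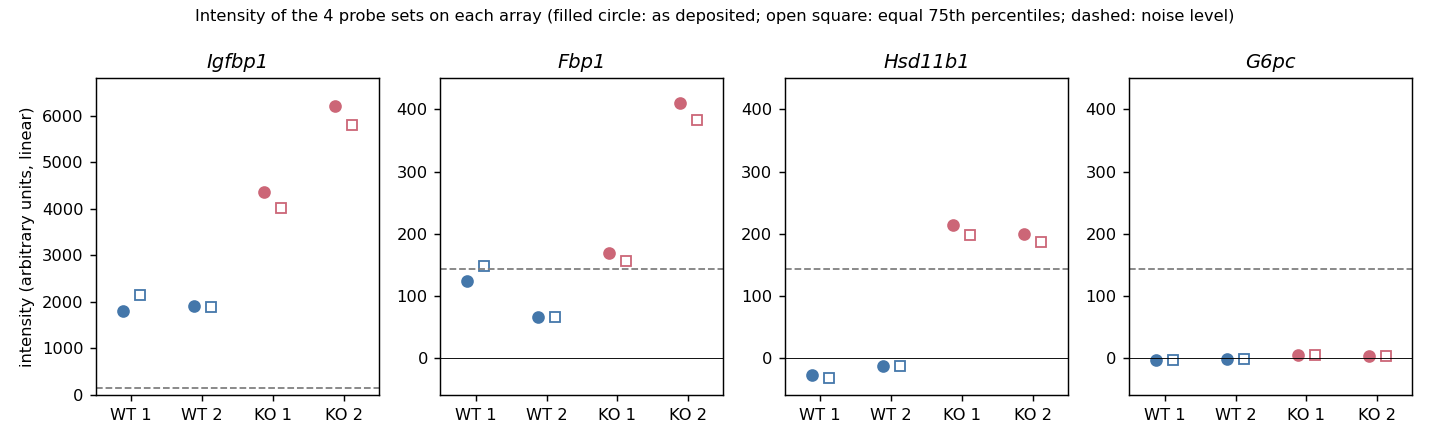
Intensity (linear, arbitrary units) of Igfbp1, Fbp1, Hsd11b1 and G6pc on the 2 WT arrays (blue) and the 2 Stk40 KO arrays (red), as deposited (filled circles) and at equal 75th percentiles (open squares), with the noise level of 143 as a dashed line; the Igfbp1 panel has its own scale. Igfbp1 is far above the noise level everywhere, Hsd11b1 is below 0 in WT and above the noise level in Stk40 KO, and all G6pc values lie close to 0.

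Igfbp1 was the brightest member. Its intensity was 1801 and 1910 in WT and 4364 and 6211 in Stk40 KO. Stk40 KO replicate 2 was the highest array and the WT arrays lay close together. The means were 1856 ± 77.2 (SD, n = 2 arrays) in WT and 5288 ± 1306 in Stk40 KO, a ratio of 2.85. At equal 75th percentiles the values were 2152 and 1899 against 4019 and 5798, and the ratio was 2.42. On the log2 scale the difference was 1.26 with a standard error of 0.15 from limma. The median of this difference over all 12418 probe sets fitted was -0.04, and the distance of Igfbp1 from it follows from how the gene was chosen. Without any one array the ratio stayed between 2.35 and 3.35 as deposited. At equal 75th percentiles it stayed between 1.98 and 2.86, and the lowest value, just under 2-fold, was the one without Stk40 KO replicate 2.

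Fbp1, the gluconeogenic enzyme with a measurable value, was dimmer and more variable. Its intensity was 124 and 65.8 in WT against 169 and 410 in Stk40 KO. Stk40 KO replicate 1 was closer to WT replicate 1 than to its own replicate. The means were 94.7 ± 40.9 (SD, n = 2 arrays) in WT and 290 ± 170 in Stk40 KO, a ratio of 3.06. Both WT values lay under the noise level, and against that level Fbp1 was at least 1.85-fold higher in Stk40 KO, from means of log2 values. The bound was 1.68-fold at equal 75th percentiles, where WT replicate 1 lay above the noise level. At equal 75th percentiles the values were 148 and 65.4 against 156 and 382, so that the gap between the genotypes narrowed to 8.33 intensity units. On that scale the log2 difference was 0.75 with a standard error of 0.33, with WT replicate 2 raised to the noise level. The size of the Fbp1 difference rested on single arrays. As deposited the ratio was 1.79 without Stk40 KO replicate 2, 4.33 without Stk40 KO replicate 1, 2.34 without WT replicate 2 and 4.40 without WT replicate 1. At equal 75th percentiles it was 1.46 without Stk40 KO replicate 2 and 1.82 without WT replicate 2, both under 2-fold.

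**Figure D2:**
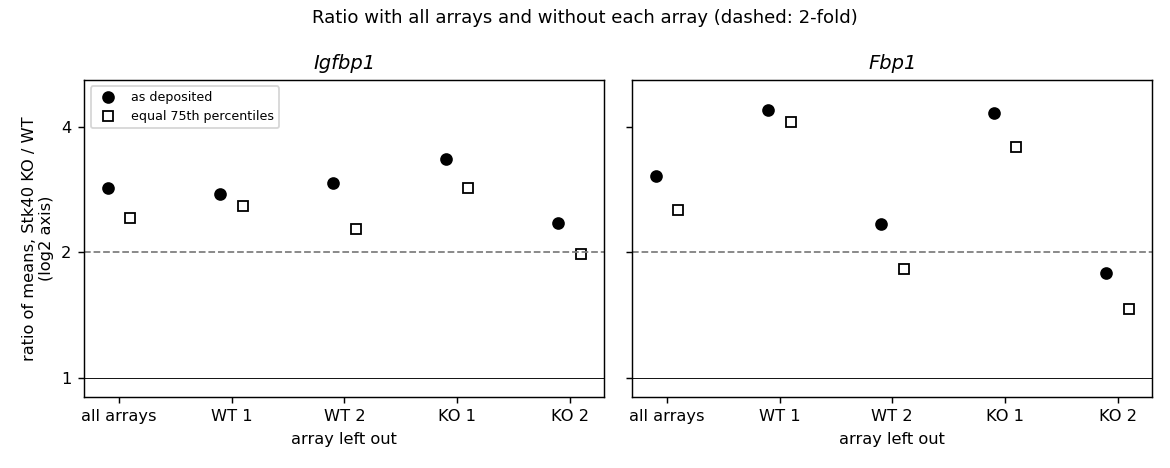
Ratio of mean intensity, Stk40 KO over WT (log2 axis), of Igfbp1 and Fbp1 with all arrays and without each array in turn, as deposited (filled circles) and at equal 75th percentiles (open squares), with 2-fold as a dashed line. Igfbp1 stays between 1.98 and 3.35, while Fbp1 spans 1.46 to 4.40 and falls under 2-fold without Stk40 KO replicate 2.

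Hsd11b1, the glucocorticoid-activating reductase, was negative on both WT arrays and above the noise level on both Stk40 KO arrays. Its intensity was -27.8 and -13.1 in WT and 214 and 200 in Stk40 KO. The arrays of each genotype lay close together, and the genotypes were 213 intensity units apart at their nearest values. As the WT values are negative, only a lower bound can be given, and Hsd11b1 was at least 1.45-fold higher in Stk40 KO against the noise level, or at least 1.35-fold at equal 75th percentiles. The 2-fold rule gives a ratio of 2072 for the same values, which is set by the floor of 0.1 that it puts in place of negative values.

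G6pc, the terminal enzyme of glucose release, had no measurable level on these arrays. Its intensity was -3.27 and -2.27 in WT against 5.09 and 2.27 in Stk40 KO. The signs differ between the genotypes, but all 4 values are small against the noise level. On each array, 10.7% to 12.5% of the probe sets had a value no larger in size than the highest of them. The 2-fold rule gives a ratio of 36.8, again set by the floor of 0.1, and with both genotypes under the noise level no fold is given here. A value under the noise level does not show that the transcript is absent.

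**Figure D3:**
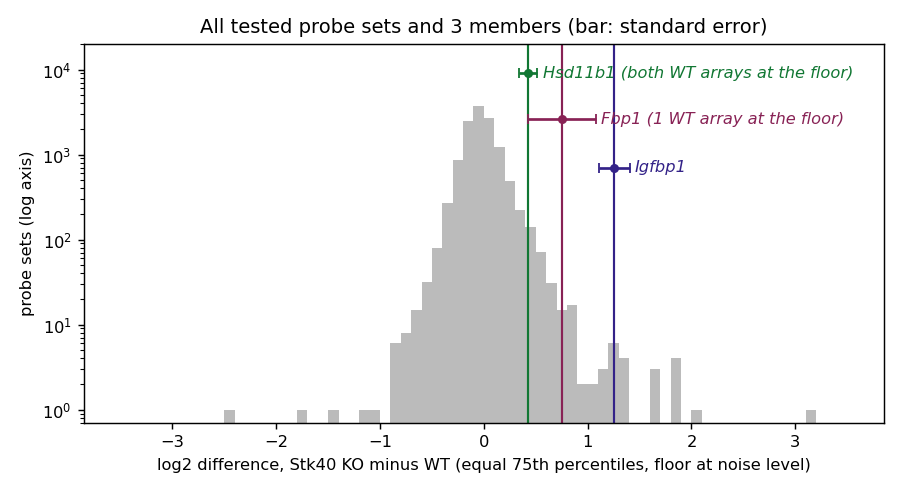
Number of probe sets (log axis) by log2 difference, Stk40 KO minus WT, at equal 75th percentiles with dimmer values raised to the noise level, over the 12418 probe sets fitted, with Hsd11b1, Fbp1 and Igfbp1 marked (point and bar: value and standard error). Igfbp1 stands at 1.26, Fbp1 at 0.75 and Hsd11b1 at 0.43. Fbp1 and Hsd11b1 are lower bounds, because WT replicate 2 of Fbp1 and both WT arrays of Hsd11b1 lie at the floor. Their bars leave out any spread under the floor. The 3 genes were chosen for this difference, so their place in the plot is no test.

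The members also differed in how well the 2 pools of Stk40 KO livers matched. This is a description only, since 1 high Stk40 KO array raises the mean that chose a member, and since Fbp1 and Hsd11b1 enter this comparison through their Stk40 KO values. Among 11775 probe sets above the noise level on both Stk40 KO arrays, the median difference between these arrays was 1.07-fold at equal 75th percentiles, and the 95th percentile was 1.23-fold. For Igfbp1, Stk40 KO replicate 2 was 1.44-fold above replicate 1, and 60 probe sets (0.51%) were at least as far apart. For Fbp1 it was 2.45-fold above, and 3 probe sets (0.0255%), Fbp1 included, were at least as far apart. Hsd11b1 showed no such gap, with replicate 1 at 1.06 times replicate 2, and 58% of the probe sets were at least as far apart. Thus Igfbp1 and Fbp1 were both highest in the same pool of Stk40 KO livers, and Hsd11b1 was nearly level in both.

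The named genes whose pattern over the 4 arrays was most similar to each member share its shape by construction, and they are given as a description. Likeness was measured as the distance between log2 intensities centred on their mean over the 4 arrays. They were taken at equal 75th percentiles and raised to the noise level. The comparison covered 75 named probe sets of other genes that lay above the noise level on at least 2 arrays. Raising hides differences under that level, so distances for genes with dim WT values are partly set by it. All of these had been named for a 2-fold difference, so some resemblance follows from that choice, and 4 arrays allow no test. The intensities below are as deposited. The nearest to Igfbp1 were Ltf (distance 0.13), Cp (0.14) and Ngp (0.15). Cp had 57.0 and 61.1 in WT, both raised to the noise level, and 294 and 437 in Stk40 KO. Ltf and Ngp encode neutrophil granule proteins, and Cp encodes ceruloplasmin, a copper-carrying plasma protein made in liver. Ltf had an intensity of 183 and 181 in WT and of 410 and 650 in Stk40 KO, the same order of arrays within Stk40 KO as Igfbp1. Fbp1 had no close neighbour. Its nearest gene was Hamp, the iron-regulating hormone of the liver, at a distance of 0.39, with 91.9 and 141 in WT against 172 and 299 in Stk40 KO. The next were Cxcl10, an interferon-induced chemokine, at 0.55 and Ifitm6 at 0.57. The nearest to Hsd11b1 were Cap1 (0.12), Car8 (0.12) and Gjb2 (0.13), all with WT values under the noise level. Gjb2, a gap junction protein of hepatocytes among other cells, had 65.4 and 135 in WT and 237 and 215 in Stk40 KO. Among the members themselves, Igfbp1 and Fbp1 were 0.74 apart, Igfbp1 and Hsd11b1 0.94, and Fbp1 and Hsd11b1 1.02.

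**Figure D4:**
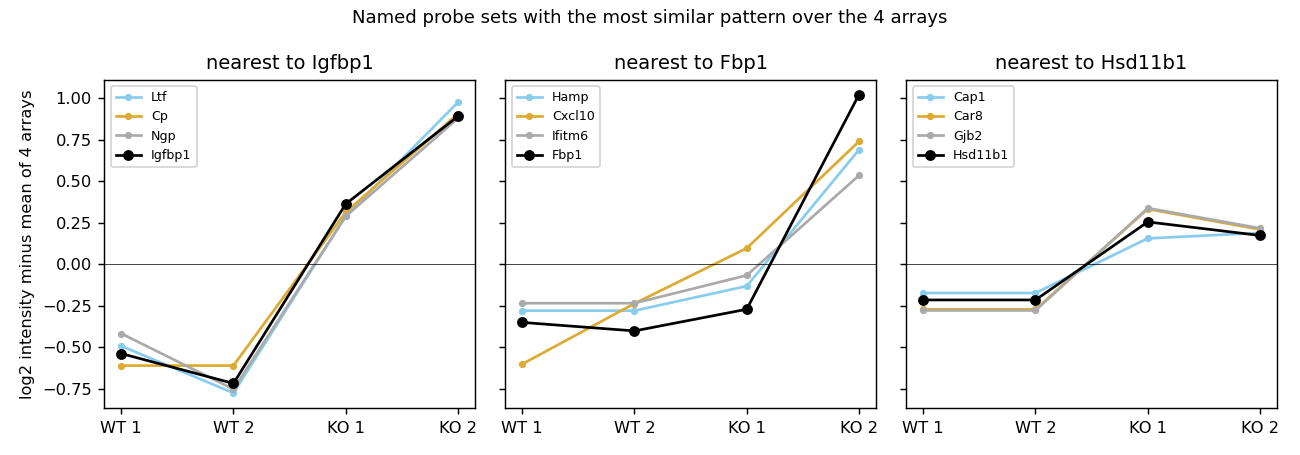
Log2 intensity minus its mean over the 4 arrays (equal 75th percentiles, dimmer values raised to the noise level) for Igfbp1, Fbp1 and Hsd11b1 (black) and the 3 named genes nearest to each (colours); the lines only join the arrays of one gene. Igfbp1 and its neighbours are highest in Stk40 KO replicate 2, Fbp1 rises in that array alone, and Hsd11b1 and its neighbours are nearly level in both Stk40 KO arrays.

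The region before the start of each gene was examined because hormone-responsive factors are known to act close to the starts of Igfbp1 and G6pc. All 4 genes matched a RefSeq promoter of build GRCm38.p6, and the 250 bases before the start were searched on both strands for 7 short motifs. The core of the insulin response element, CAAAACA, was present in Igfbp1 and G6pc and in 5.56% of 32851 promoter windows of the same length. Hsd11b1 held 1 forkhead core, GTAAACA, found in 3.17% of the windows, and G6pc held 1 TATAAA box, found in 12.4%. None of the 7 motifs was found in the window of Fbp1. The exact palindrome of the glucocorticoid response element, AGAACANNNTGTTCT, and its half-site AGAACA were found in 0 of the 4 windows. They were in 0.00913% and 16.1% of all windows. As the palindrome was in only 3 of the 32851 windows, its absence from the 4 says almost nothing. The HNF4 half-site CAAAGT (12.6% of all windows) and the cyclic AMP half-site TGACG (17.8%) were also in 0 of the 4. A match describes letters and not a bound site. The absence of a match holds only for these windows and these exact strings. Variants of the strings were not searched, so no window is shown to lack a site for any of these factors. The windows of the 3 genes with a match are shown to give the place of each motif, 5′ to 3′ on the strand of the gene, with matches to either strand in capitals. Igfbp1 is at chr11:7197537-7197786 (plus strand), G6pc at chr11:101367466-101367715 (plus strand) and Hsd11b1 at chr1:193242361-193242610 (minus strand).
Igfbp1: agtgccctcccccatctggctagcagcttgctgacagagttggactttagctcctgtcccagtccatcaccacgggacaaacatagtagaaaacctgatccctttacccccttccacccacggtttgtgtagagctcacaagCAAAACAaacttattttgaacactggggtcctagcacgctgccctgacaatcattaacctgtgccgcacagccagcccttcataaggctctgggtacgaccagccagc
G6pc: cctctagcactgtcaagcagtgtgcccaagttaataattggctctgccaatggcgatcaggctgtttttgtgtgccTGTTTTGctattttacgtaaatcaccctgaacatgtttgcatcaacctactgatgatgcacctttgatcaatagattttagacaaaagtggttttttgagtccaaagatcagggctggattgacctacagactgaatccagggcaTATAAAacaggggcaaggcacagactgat
Hsd11b1: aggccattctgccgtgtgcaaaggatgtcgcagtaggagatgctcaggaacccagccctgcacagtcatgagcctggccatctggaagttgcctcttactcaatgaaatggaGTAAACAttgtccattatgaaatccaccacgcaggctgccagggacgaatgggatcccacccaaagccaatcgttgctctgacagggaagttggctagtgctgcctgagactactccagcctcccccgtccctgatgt
In Igfbp1 the insulin response core lies 108 to 102 bases before the start. In G6pc it lies on the opposite strand, 174 to 168 bases before the start, with the TATAAA box at 29 to 24. In Hsd11b1 the forkhead core lies 138 to 132 bases before the start used here. This start is not the outermost end of the gene in RefSeq, so another start may exist, whose window was not searched. G6pc shares the insulin response core with Igfbp1 and had no measurable level in either genotype. Whether the core bears on the level of either gene was not tested.

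Of 106 further genes in 9 lists of gluconeogenesis, glycolysis and glycogen, insulin and glucocorticoid action and the insulin-like growth factor axis, 7 have a name in the deposited table, of which 5 were up and 2 were down by its rule. The other 99 have no name here, so that whether they changed cannot be read from these files. Only genes already chosen by fold have a name, and no count over these lists is a result about a pathway. Besides Fbp1 and G6pc, 0 of 6 gluconeogenesis enzymes are named, Pck1 among the 6, and 0 of 18 further glucocorticoid target genes, which include Tat, Tsc22d3 and Fkbp5. Of 12 further genes of glucocorticoid activation and its receptor, Akr1d1 is named, which encodes the liver reductase that inactivates glucocorticoids and also acts in bile acid synthesis. Its brighter probe set had an intensity of 69.4 and 68.5 in WT and of 254 and 191 in Stk40 KO. Its other probe set had 35.9 and 25.5 against 100 and 65.5. Both were thus higher in Stk40 KO, on both arrays, with replicate 1 above replicate 2 as in Hsd11b1. In limma the log2 difference of the brighter one was 0.52 (standard error 0.13, adjusted p = 0.0885), where both WT values had been raised to the noise level. As deposited the adjusted p in limma was 0.0016. In that fit limma took the spread from all probe sets, and the spread of Akr1d1 itself had no weight. Akr1d1 has a name here only through its 2-fold difference on these arrays, so neither p is independent of its choice. At a threshold of an adjusted p of 0.05, 154 (1.24%) of the 12418 fitted probe sets were higher and 86 (0.693%) were lower in Stk40 KO, against 281 higher and 11 lower as deposited.

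Among genes of glycogen and glucose handling, Ppp1r3b and Ppp1r3c, which target a phosphatase to glycogen and favour glycogen synthesis, were higher in Stk40 KO on both arrays. Ppp1r3b had 21.6 and 36.8 in WT and 84.3 and 138 in Stk40 KO. Ppp1r3c had 8.55 and 8.36 in WT and 74.1 and 97.2 in Stk40 KO. Gckr, the protein that holds glucokinase inactive in the hepatocyte nucleus, was lower, with 119 and 146 in WT against 41.5 and 65.9. Of the regulators of gluconeogenic genes, Trib3, a stress-induced pseudokinase that inhibits the insulin effector Akt, had 12.5 and 12.8 in WT and 29.1 and 77.2 in Stk40 KO by one probe set and 6.45 and 29.8 against 31.1 and 60.0 by the other. Onecut1, which encodes a hepatocyte transcription factor, was lower in Stk40 KO on both arrays. It had 17.0 and 27.1 in WT against 7.55 and 8.91. In the insulin-like growth factor axis, Pappa, a protease of binding proteins, had 8.55 and 24.6 in WT and 27.5 and 44.0 in Stk40 KO. Pappa was no longer 2-fold apart at equal 75th percentiles. Apart from WT replicate 2 of Gckr and both Stk40 KO arrays of Akr1d1, all values of these 7 genes lay under the noise level, so no fold is given for them.

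**Figure D5:**
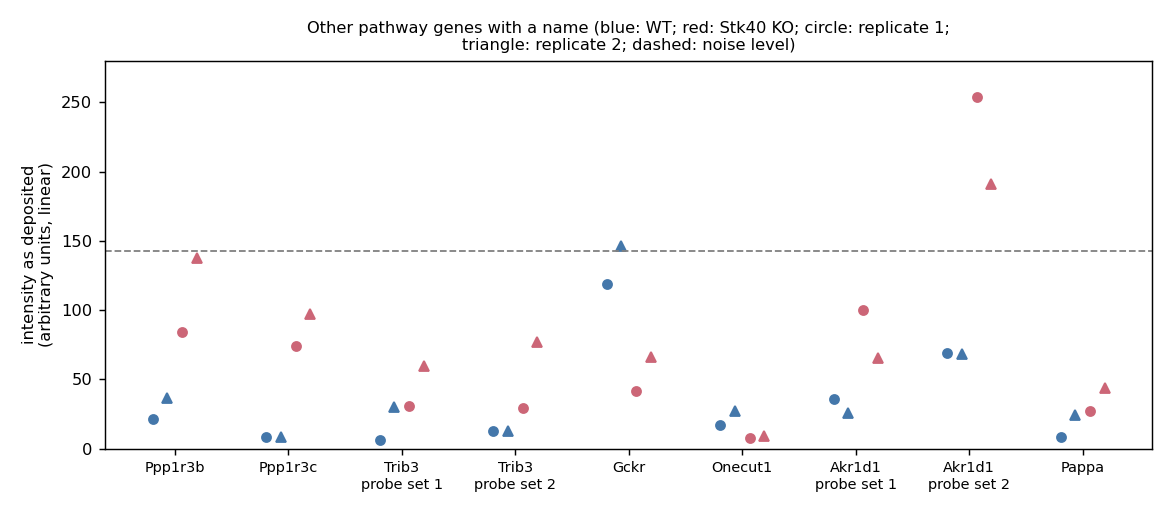
Intensity as deposited (linear, arbitrary units) of the 9 probe sets of the 7 other pathway genes with a name, on WT (blue) and Stk40 KO (red) arrays, replicate 1 as circles and replicate 2 as triangles, with the noise level of 143 as a dashed line. Akr1d1 (probe set 2) exceeds the noise level on both Stk40 KO arrays, and Gckr and Onecut1 are the 2 genes that are lower in Stk40 KO.

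Some markers of liver maturation and of other cells were also higher in Stk40 KO. They too have a name here only through a 2-fold difference on these arrays, so their values are given with no test. Of 11 further genes that mark the maturation of hepatocytes around birth, 2 are named, and the summed intensity of both, Cps1 of the urea cycle and the cytochrome P450 Cyp3a11, was 251 and 249 in WT against 1862 and 2231 in Stk40 KO. At equal 75th percentiles their log2 differences were 3.20 for Cps1 and 1.85 for Cyp3a11. These are lower bounds, since both WT values of Cps1 and WT replicate 2 of Cyp3a11 were raised to the noise level. Of 10 neutrophil markers, 4 are named (Ngp, Camp, Ltf and Lcn2), with a summed intensity of 1712 and 1765 in WT against 4138 and 5820 in Stk40 KO, so that their sum was also highest in Stk40 KO replicate 2. Their log2 differences ran from 0.95 (Camp) to 2.02 (Lcn2). Of 10 endothelial and stromal markers, Col1a1 and Des are named, with a sum of 278 and 295 against 558 and 668. Most of this sum was Col1a1, at 267 and 291 against 517 and 644. Of 9 macrophage markers Cd163 is named, at 1.82 and 0.73 against 21.5 and 13.7. All values of Des and Cd163 lay under the noise level, so no difference is read from them. Camp and Col1a1 were no longer 2-fold apart at equal 75th percentiles. Of 17 hepatoblast and hepatocyte markers, Alb and Afp among them, and of 15 erythroid markers, 0 are named, so that the tissue could not be checked by its defining markers. The adrenal cortex makes glucocorticoid and lies near the liver in the embryo. Of 6 of its markers 2 are named, and both, Cyp11a1 and Nr5a1, lay within 6 intensity units of 0 on all 4 arrays. The part of cell shares in the values of Igfbp1, Fbp1 and Hsd11b1 was not tested.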

How the data were processed

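RNA of E14.5 fetal livers was hybridized to Affymetrix mouse arrays, 2 per genotype, each with RNA of 6 livers; genotype and replicate number come from the labels. The authors deposited intensities on a linear scale, and the submitters' processing notes name MAS5 (its version is not given in the sources used here). No scaling between arrays was seen, and 99.9% of the values are multiples of 1/11 within 0.001. With many negative values among them, they look like unscaled averages over 11 probe pairs, and which MAS5 output they are is not known here. Gene symbols were read from their list of 2-fold differences, whose columns of means, folds and direction hold their own comparison and were not used.

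The 2-fold rule of the methods removes probe sets negative on all arrays or inconsistent within a genotype (read here as opposite in sign), raises values under 0.1 to 0.1 and takes ratios of genotype means, taken here on the linear scale; the authors also dropped genes that were in both the higher and the lower list, a step not applied here. limma 3.58.1 (R 4.3.3; lmFit, eBayes with a trend, Benjamini-Hochberg) was run on log2 intensities at equal 75th percentiles, raised to the noise level, for probe sets that exceeded it on 2 or more arrays. This differs from an unscaled fit because the arrays differ in brightness by genotype. It was tested on simulated data. The labels call the pools biological replicates, and p-values measure only the spread between pools; the number of arrays limits the precision.

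The members and lists were chosen with earlier results of these data known. Genes named are the members, Stk40, each member's 3 nearest genes and list genes that passed limma; all 7 named pathway genes and the markers with a name were added after their values were seen. Promoters are from RefSeq. One further gene and a motif are not reported here.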

Additional observations from a re-analysis of the deposited data

How the results depend on the processing

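With 2 arrays per genotype and most probe sets near the noise level, dim genes are limited to bounds. The log2 difference of Igfbp1, 1.26, ran from 0.99 to 1.52 over the alternatives run. That of Fbp1, 0.75, fell to 0.10 without Stk40 KO replicate 2 and rose to 1.40 without Stk40 KO replicate 1. The floor also enters these values, because WT replicate 2 is raised to it. With all arrays the difference was 1.25 with the floor at 0.5 times the noise level and 1.31 with the lower floors. Its size thus depends on single arrays and on the floor. That of Hsd11b1, 0.43, depends on the floor because its WT values are negative. It was 0.54 as deposited, 1.43 with the floor at 0.5 times the noise level, 3.67 at the median size of the negative values (an intensity of 15.1) and 10.91 with a floor of 0.1, and 0.39 to 0.47 without one array. G6pc was at the floor in all settings but the floor of 0.1, where a value of 4.98 arises from that floor. By the 2-fold rule 4 members passed, 2 (Igfbp1 and Fbp1) with the floor at the noise level, and 3 to 4 without one array.

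limma called 154 probe sets higher and 86 lower. It called 281 and 11 as deposited, 239 and 163 with the floor at the median size of the negative values, 22 and 10 with the filter at 1 array, and 106 and 56 without a trend. A plain t-test called 0 and 0, with 1471 at an unadjusted p under 0.05. Without one array the counts ran from 100 to 442 and from 116 to 300; the extremes were 100 higher without Stk40 KO replicate 2, and 442 and 300 without WT replicate 2. Of the other pathway genes, only Akr1d1 was bright enough to enter the main fit, where it was not called. Among the fits with all arrays, it was called as deposited, with the floor at the median size and with the replicate block. Without either WT array its log2 difference was again 0.52, and no call is read from a fit with 1 WT array. Gckr entered only with quantile normalization and with the filter at 1 array, and was not called. Without either Stk40 KO array no other pathway gene was fitted. The lack of calls is thus no result about the pathway genes. The adjusted p of Akr1d1 ranged from 9.5e-05 in limma with the replicate block to 0.501 in the plain t-test. The cause of these shifts was not tested.

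With the replicate number as a block, limma called 802 higher and 1189 lower, and the members' log2 differences were identical. Same-numbered arrays deviated together with a correlation of 0.24 over 11394 probe sets. With 2 pairs, this is only a hint that the numbers pair the samples. A fit with no filter on low values could not be made, because most residual variances were then 0.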
